A study of Mus musculus with 36 samples.

Results

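Folate and glycine one-carbon enzymes were followed in mouse embryos as 9 genes of the 23845 in a table of estimated RNA-seq counts. They were chosen by name: Mthfd1, Mthfd1l and Shmt1 of folate metabolism, Gldc, Amt and Gcsh of the glycine cleavage system, and Mtr, Mat2a and Ahcy of the methionine cycle. The measured values behind the choice were the counts of Mthfd1 in KRAB and Ctrl embryos, known from an earlier look at these data, so that difference is given as a description without a test. The whole list was proposed with earlier results of these data known, so test results of the other members are to be read as descriptions too. The study's title links LINE-1, a retrotransposon family switched on after fertilisation, with open chromatin. It comprised 36 libraries, each from a pool of 4 to 5 embryos. At the 8-cell stage 7 libraries were labelled VP64, 6 Ctrl and 6 NI, and at the 2-cell stage 6 were labelled KRAB, 7 Ctrl and 4 NI. VP64 is the name of a known activator domain and KRAB that of a known repressor domain. The labels state that embryos were injected and cultured, and do not spell out NI, the agent given to Ctrl embryos, the target of VP64 and KRAB, the strain or the age. VP64 was present only at the 8-cell stage and KRAB only at the 2-cell stage, so neither can be compared across stages. Nothing states that pools came from separate experiments, so the p-values rest on pool-to-pool spread, part of which may be technical.

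Cells pass single carbon units between serine, glycine, folate and methionine. Serine hydroxymethyltransferases and the glycine cleavage system load carbon onto folate, and the Mthfd enzymes interconvert the loaded forms, which feed the making of purines and thymidylate. Methionine synthase draws on the same pool to renew methionine, from which S-adenosylmethionine, the methyl donor for DNA and histones, is made. The glycine cleavage system lies in mitochondria, and in mouse preimplantation embryos glycine is known as an abundant solute that guards cell volume.

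Promoters of 5 members that were higher at the 8-cell stage in NI are shown to let their sequence be read beside the values, of which 4 hold CCAAT and Ahcy does not. That of Amt is not shown because its window runs into the annotated gene. Each is the RefSeq stretch from 200 to 41 bases before the start of transcription (GRCm38.p6), written 5′ to 3′ on the gene's strand, with CCAAT or its reverse complement ATTGG in capitals. They lie at chr12:76255032-76255191 on the plus strand for Mthfd1, chr19:30175482-30175641 on the minus strand for Gldc, chr8:116993539-116993698 on the minus strand for Gcsh, chr6:72439597-72439756 on the minus strand for Mat2a and chr2:155074538-155074697 on the minus strand for Ahcy. Mthfd1l, at chr10:3972875-3973034 on the plus strand, is shown as the member that was lower at the 8-cell stage in Ctrl.
Mthfd1: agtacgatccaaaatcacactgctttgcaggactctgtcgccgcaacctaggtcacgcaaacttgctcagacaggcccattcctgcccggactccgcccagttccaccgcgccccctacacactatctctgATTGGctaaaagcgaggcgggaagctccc
Gldc: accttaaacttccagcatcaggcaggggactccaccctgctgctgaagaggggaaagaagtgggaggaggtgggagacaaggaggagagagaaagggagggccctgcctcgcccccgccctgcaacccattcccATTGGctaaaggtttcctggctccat
Gcsh: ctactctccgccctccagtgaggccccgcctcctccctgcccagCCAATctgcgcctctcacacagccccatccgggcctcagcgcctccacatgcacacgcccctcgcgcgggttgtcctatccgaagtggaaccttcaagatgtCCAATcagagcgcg
Mat2a: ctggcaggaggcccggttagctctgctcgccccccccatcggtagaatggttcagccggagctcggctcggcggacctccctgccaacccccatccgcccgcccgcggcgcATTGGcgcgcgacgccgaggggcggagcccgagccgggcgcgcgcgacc
Ahcy: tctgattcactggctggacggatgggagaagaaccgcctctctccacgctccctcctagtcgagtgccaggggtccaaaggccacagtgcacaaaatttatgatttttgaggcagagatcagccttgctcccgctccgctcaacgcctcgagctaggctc
Mthfd1l: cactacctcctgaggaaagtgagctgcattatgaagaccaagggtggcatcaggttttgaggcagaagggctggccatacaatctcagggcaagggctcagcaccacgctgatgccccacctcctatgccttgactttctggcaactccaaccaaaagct
CCAAT, searched on both strands, was present in this window in 6 of the 9 members, which were these first 4 with Shmt1 and Mtr, and in 25% of 32851 mouse promoters. The motif counts include Amt, and also Shmt1, whose window lies wholly within its annotated gene. It began 69 bases before the start in Mthfd1, 66 in Gldc, 89 in Mat2a, and both 156 and 54 in Gcsh. The GC box GGGCGG was present in 7 members and in 24.5% of all promoters. The E-box CACGTG was present in 0 members and 3.88% of promoters, and TATAAA in 0 members and 7.04%. Shmt1 and Mtr hold CCAAT in this window and did not pass the test between the stages. Amt, and Ahcy in NI, passed it without CCAAT in the window, part of which lies within the gene for Amt. Whether CCAAT bears on the stage difference was not tested. A match is a run of letters and not a measured binding site.

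Values are given as CPM, counts scaled to a common library size over all 36 libraries. Total counts were 1103574 to 13583527 per 8-cell library and 1043740 to 10035066 per 2-cell library. Genes of the oocyte's maternal store summed to 55 to 872.6 CPM at the 8-cell stage, against 5249 to 48422 CPM at the 2-cell stage. Genes of the 2-cell embryo overlapped between the stages, with sums of 418.5 to 2427 CPM in 8-cell and 1017 to 5195 CPM in 2-cell libraries. Ctrl 8-cell replicates 1 and 2 had 2028 and 2427 CPM of these, against 1594 to 2410 CPM in Ctrl 2-cell libraries. Genes of the 8-cell embryo and morula summed to 217.6 to 2147 CPM at the 8-cell stage, against 15.3 to 281.6 CPM at the 2-cell stage, and all 8 of them had counts in every group. Ctrl 8-cell replicate 6 stood at the low end of this sum, had the highest oocyte sum of its stage, and had the fewest genes of all libraries with 9672. Whether its content matches its label was not tested. It sets the lowest Ctrl 8-cell values of Gcsh, Mthfd1, Mat2a, Mtr, Mthfd1l and Shmt1, and shares that of Amt, 0 CPM, with replicate 3. Without replicate 6 the same 6 members were called between the stages in Ctrl. Ctrl 2-cell replicate 3 had the highest 8-cell sum of its stage. Ctrl 2-cell replicates 1, 5 and 7 stood apart with 1869, 3820 and 2948 CPM of ribosomal protein mRNAs, against 6007 to 49202 CPM in the other 14 2-cell libraries. Summed cumulus cell markers overlapped between the stages, at 15.6 to 405.7 CPM in 8-cell and 17.8 to 416.4 CPM in 2-cell libraries, and of these 18 genes 3 to 12 were at 0 in a group.

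Between the stages most members were higher in 8-cell embryos, in both NI and Ctrl. In NI, 6 of the 9 rose and 0 fell, which were Mthfd1, Gldc, Amt, Gcsh, Mat2a and Ahcy. In Ctrl, 5 rose (Mthfd1, Gldc, Amt, Gcsh and Mat2a) and 1, Mthfd1l, fell. Ctrl values of Mthfd1 led to the choice of the genes, so its place in the Ctrl counts here is no test of it. These calls are from edgeR's quasi-likelihood test at an adjusted p of 0.05, and all 9 members passed the filter on low counts in this fit of 13158 genes. Among all genes tested, 49.9% were called in NI, made up of 18.5% as higher and 31.4% as lower. In Ctrl 61.5% were called, made up of 22.5% as higher and 39% as lower. At an unadjusted p under 0.05 stood 7 members in NI (56% of all genes) and 6 in Ctrl (65.2%), and DESeq2 called 6 in NI (54.7%) and 7 in Ctrl (64.5%). In NI the ranges of 5 members lay wholly higher at the 8-cell stage (12.8% of all genes). In Ctrl 2 lay wholly higher (7.13%) and 1 wholly lower (17.3%). The members' median log2 fold change was 2.81 in NI and 1.35 in Ctrl, beside a median over all genes of -0.47 in NI and -0.51 in Ctrl. The members' median in Ctrl is the value of Mthfd1 itself. Relative to all genes the members' median stood 3.28 higher in NI and 1.86 higher in Ctrl, and with another scaling (RLE) 3.31 and 1.85. Because pooled embryos were sequenced, fewer cells with a transcript and less of it per cell cannot be told apart.

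**Figure D1:**
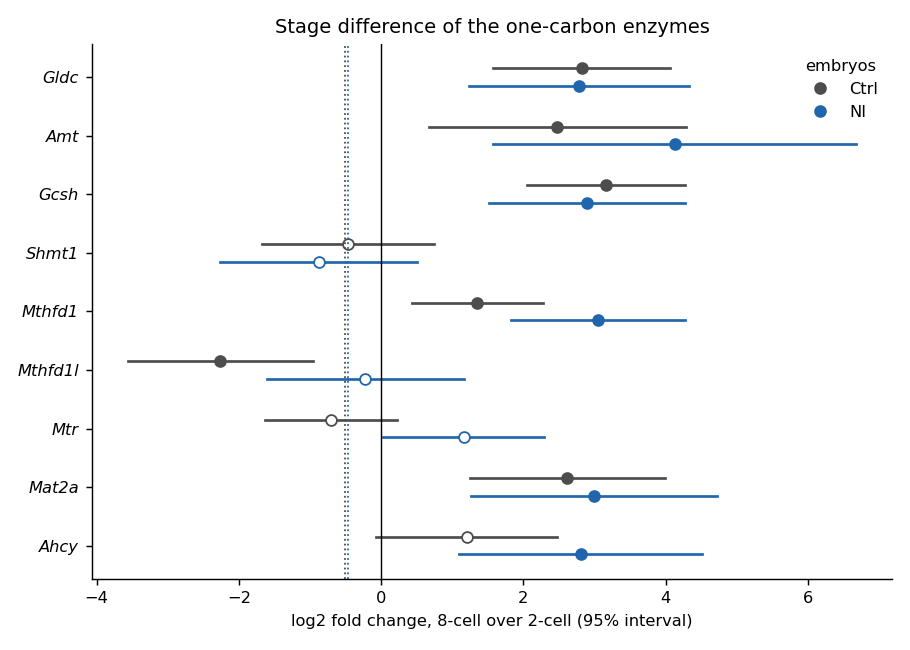
Log2 fold change of each member between 8-cell and 2-cell libraries (horizontal axis) with its 95% interval, in Ctrl (dark) and NI (blue) embryos. Filled points passed the test and dotted lines mark the median of all genes, -0.51 in Ctrl and -0.47 in NI. Gldc, Gcsh and Mat2a lie between 2.62 and 3.17 in both. The Ctrl point of Mthfd1 uses values that led to the choice of the genes and is no test of it.

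All 3 members of the glycine cleavage system rose in both treatments. Gcsh (chr8:116981810-116993537 in GRCm38, as for all gene positions here), the H protein whose lipoyl arm carries the intermediate, had the highest level per kilobase of exon of the 9 members in 6 of 6 groups. It had 2429, 3730 and 4566 CPM as the lowest, median and highest value in NI 8-cell libraries, against 167.6, 711.3, 88.9 and 977.2 CPM in the 4 NI 2-cell libraries. Ctrl libraries had 1429, 3671 and 5455 CPM at the 8-cell stage, against 72.6, 446.7 and 897.4 CPM at the 2-cell stage. No 8-cell library reached down to a 2-cell library of its treatment. Gcsh rose by 2.89 ± 0.68 on the log2 scale in NI (SE, edgeR adjusted p 6.16e-04) and 3.17 ± 0.55 in Ctrl (adjusted p 6.93e-06). Its counts were whole numbers in 10 of 36 libraries, and 8.72% of the 31-base words in its exons recur in 7 other genes. Its level is therefore uncertain, by an amount that this share does not measure.

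Gldc (chr19:30098447-30175429), the P protein that strips the carboxyl group from glycine, had a lowest, median and highest value of 58.3, 147.4 and 238.9 CPM in NI 8-cell libraries, against 13.5, 37.1, 4.30 and 30.5 CPM in NI 2-cell libraries. Ctrl libraries had 112.9, 176.8 and 391.1 CPM at the 8-cell stage, against 1.09, 33.5 and 68.9 CPM at the 2-cell stage. The stages did not overlap in either treatment. Gldc rose by 2.78 ± 0.77 on the log2 scale in NI (edgeR adjusted p 0.00283) and 2.83 ± 0.62 in Ctrl (adjusted p 1.52e-04). Without the libraries that stood apart, Ctrl 2-cell replicates 1, 5 and 7 and Ctrl 8-cell replicate 6, the change in Ctrl was 2.07 ± 0.54 (adjusted p 0.00207).

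Amt (chr9:108296853-108302302), the T protein that hands the carbon to folate, was the scarcest of the 3 per kilobase. It had 3.77, 10.2 and 18.4 CPM as the lowest, median and highest value in NI 8-cell libraries, against 0, 0.957, 0 and 0.823 CPM in NI 2-cell libraries, which together held 9 counts. In Ctrl 8-cell libraries it had 19.9, 17.9, 0, 14.9, 3.58 and 0 CPM, and it was detected in 5 of 7 Ctrl 2-cell libraries at up to 6.89 CPM, in replicate 3. The groups were separate in NI and overlapped in Ctrl, where replicates 3 and 6 of the 8-cell stage held 0 counts. Amt rose by 4.13 ± 1.26 on the log2 scale in NI (edgeR adjusted p 0.00651) and 2.48 ± 0.89 in Ctrl (adjusted p 0.0153). Without the 4 libraries that stood apart the change of Amt in Ctrl was 2.02 ± 0.95 (adjusted p 0.0747), and without Ctrl 2-cell replicate 3 it was 3.75 ± 0.99 (adjusted p 0.00129).

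Dld, the L protein that the system shares with other mitochondrial dehydrogenases, is not among the 9 members and was not called as higher in either treatment. It had 33.2 ± 19.8 CPM in NI 8-cell and 21.5 ± 26.5 CPM in NI 2-cell libraries (SD, n = 6 and 4), a log2 fold change of 0.60 ± 0.78 (edgeR adjusted p 0.536). In Ctrl it had 23.6 ± 12.6 CPM at the 8-cell stage, against 83.1 ± 68.1 CPM at the 2-cell stage, and fell by 1.82 ± 0.69 on the log2 scale (adjusted p 0.0207). That call was lost without Ctrl 8-cell replicate 4, and without the libraries that stood apart the change of Dld was -0.59 ± 0.74 (adjusted p 0.530).

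**Figure D2:**
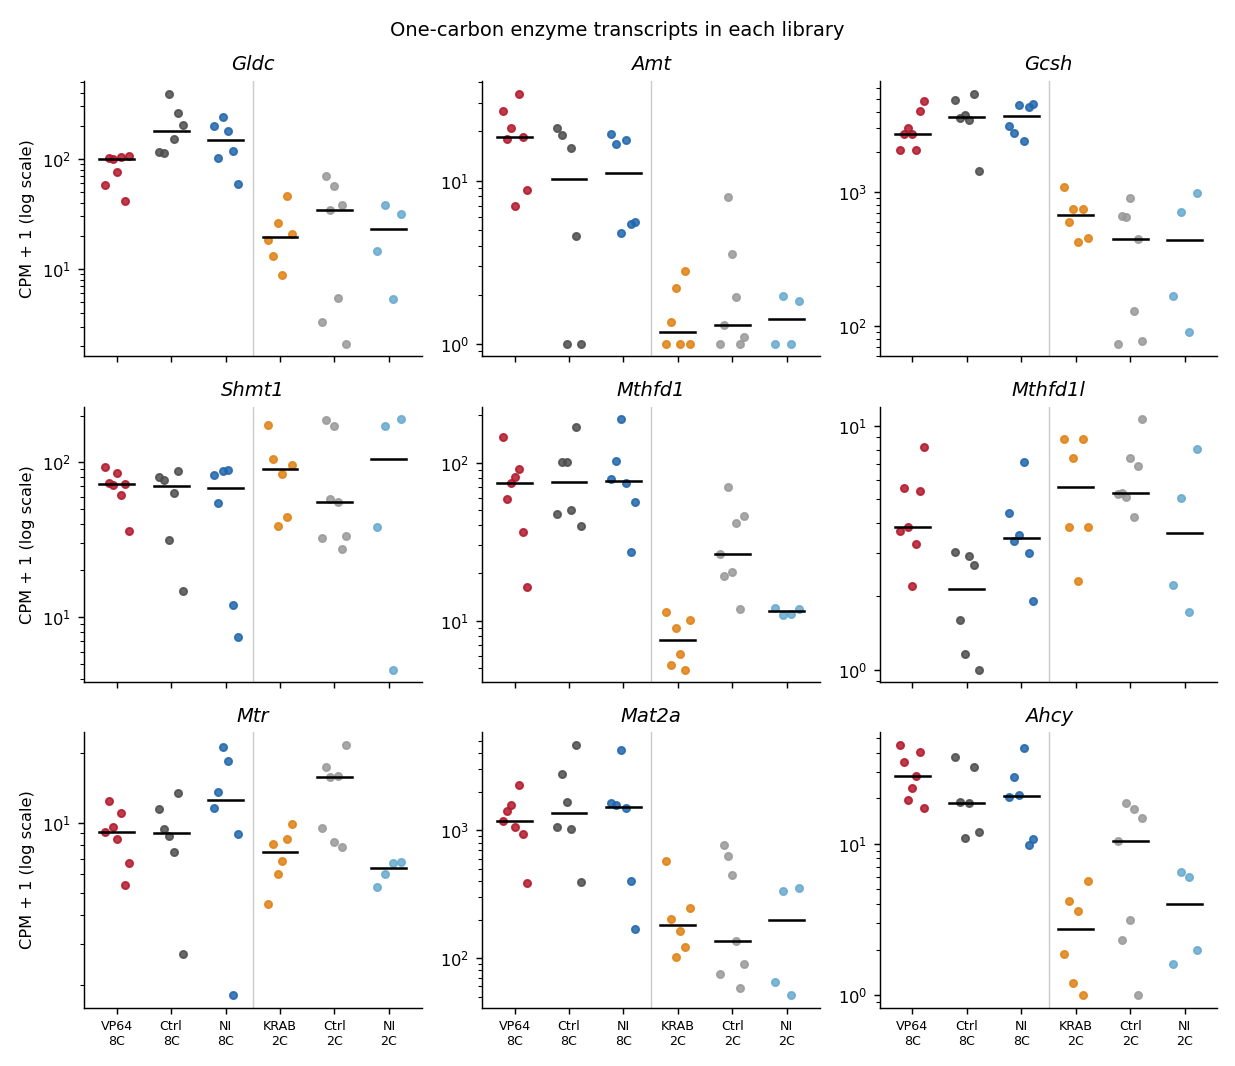
CPM plus 1 on a log axis for each member in each library, with groups along the horizontal axis (8C, 8-cell; 2C, 2-cell) and a bar at the group median. Gcsh runs from 1429 to 5455 CPM in 8-cell libraries and from 72.6 to 1092 CPM in 2-cell libraries, while Shmt1 overlaps between the stages.

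Of the folate enzymes, Mthfd1 rose in both treatments while Shmt1 did not pass the test. Mthfd1 (chr12:76255298-76319803) is the cytosolic enzyme that interconverts formyl, methenyl and methylene folate. It had 26.1, 75.5 and 186.7 CPM as the lowest, median and highest value in NI 8-cell libraries, against 11, 9.81, 10 and 10.9 CPM in NI 2-cell libraries. The 4 NI 2-cell pools lay close together and all below the 8-cell pools. In Ctrl it had 38.8, 74.8 and 167.2 CPM at the 8-cell stage, against 10.8, 25.6 and 68.7 CPM at the 2-cell stage, and these ranges overlapped. The log2 fold change of Mthfd1 was 3.05 ± 0.61 in NI (edgeR adjusted p 8.56e-05) and 1.35 ± 0.46 in Ctrl. The difference between these changes, Ctrl minus NI, was -1.70 ± 0.72. The Ctrl change and this difference use Ctrl values that led to the choice of the genes. Both are therefore given as a description without a test.

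Mthfd1l (chr10:3973118-4167081), the mitochondrial enzyme that releases formate, was low throughout, with 25 counts in all 6 Ctrl 8-cell libraries and 222 in the 7 Ctrl 2-cell libraries. Its CPM in Ctrl 8-cell libraries were 2.03, 0.598, 0.153, 1.92, 1.69 and 0, against a lowest, median and highest value of 3.24, 4.31 and 9.67 in Ctrl 2-cell libraries. It fell by 2.26 ± 0.64 on the log2 scale in Ctrl (edgeR adjusted p 0.00270), and the stages did not overlap there. In NI the log2 fold change of Mthfd1l was -0.22 ± 0.68 (adjusted p 0.806), with 0.915, 2.47 and 6.13 CPM at the 8-cell stage against 1.23, 4.07, 0.717 and 7.08 CPM at the 2-cell stage. Ctrl minus NI, the change differed by -2.03 ± 0.94 (adjusted p 0.211).

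Shmt1 (chr11:60788104-60811718), the cytosolic enzyme that splits serine into glycine and a folate-bound carbon, had 6.41, 67.6 and 87.4 CPM as the lowest, median and highest value in NI 8-cell libraries, against 37.4, 170.0, 3.59 and 188.3 CPM in NI 2-cell libraries. The 2-cell pools of Shmt1 spanned the whole 8-cell range. Its log2 fold change was -0.88 ± 0.68 in NI (95% interval -2.26 to 0.50, edgeR adjusted p 0.284) and -0.47 ± 0.60 in Ctrl (-1.68 to 0.74, adjusted p 0.513). Shmt2, its mitochondrial relative, differed by -0.09 ± 0.64 in NI (adjusted p 0.922) and fell by 2.36 ± 0.58 in Ctrl (adjusted p 6.46e-04). In the 3 Ctrl 2-cell libraries that stood apart Shmt2 had 142.6 to 159.3 CPM, against 14.7 to 119.9 CPM in the other 4, and without the libraries that stood apart its change in Ctrl was -1.29 ± 0.62 (adjusted p 0.0824).

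The mitochondrial share of each enzyme pair was taken per kilobase of exon, as a description without a test. Mthfd1l made up a median of 3.23% of Mthfd1l plus Mthfd1 in NI 8-cell libraries (1.36 to 7.70%), against 19.7% in NI 2-cell libraries (6.68 to 39.5%). In Ctrl this share was 0.799% (0 to 4.17%) at the 8-cell stage, against 17.7% (5.66 to 35.3%) at the 2-cell stage. In KRAB 2-cell libraries it was 41.5% (20 to 66.7%), and in VP64 8-cell libraries 3.78% (1.47 to 32%). The KRAB and Ctrl shares hold the Mthfd1 values that led to the choice of the genes, so they are no separate observation. Mthfd1l itself averaged 4.85 CPM in KRAB and 5.41 CPM in Ctrl 2-cell libraries. The share of Mthfd1l lay lower at the 8-cell stage, with an overlap in NI and none in Ctrl. Shmt2 made up a median of 37.9% of Shmt2 plus Shmt1 in NI 8-cell libraries (25.4 to 56.4%), against 22.1% in NI 2-cell libraries (9.84 to 87.9%). In Ctrl it was 28.4% (22.2 to 41.2%) at the 8-cell stage, against 72.4% (15.1 to 86.1%) at the 2-cell stage. The ranges overlapped in both treatments, and the medians lay in opposite order.

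**Figure D3:**
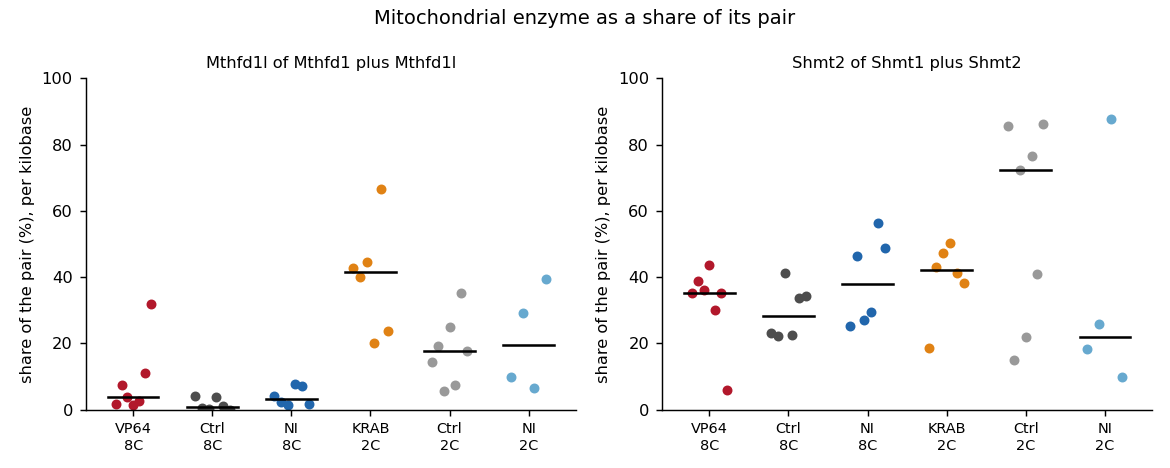
Share of the mitochondrial enzyme in its pair, in percent and per kilobase of exon, for each library, with a bar at the group median. The share of Mthfd1l lies at or below 7.70% in NI and Ctrl 8-cell libraries and between 5.66 and 66.7% in 2-cell libraries. It holds the KRAB and Ctrl values of Mthfd1 that led to the choice of the genes. The share of Shmt2 ranges from 9.84 to 87.9% in NI 2-cell libraries alone.

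In the methionine cycle, Mat2a rose in both treatments and Ahcy in NI, while Mtr passed the test in neither. Mat2a (chr6:72432799-72439558) makes S-adenosylmethionine and was second to Gcsh in its level per kilobase in 6 of 6 groups. It had 167.2, 1528 and 4269 CPM as the lowest, median and highest value in NI 8-cell libraries, against 63.8, 332.0, 50.2 and 350.8 CPM in NI 2-cell libraries. Ctrl libraries had 390.6, 1351 and 4649 CPM at the 8-cell stage, against 56.8, 134.1 and 758.5 CPM at the 2-cell stage. Both pairs of ranges overlapped. Mat2a rose by 2.99 ± 0.86 on the log2 scale in NI (edgeR adjusted p 0.00398) and 2.62 ± 0.68 in Ctrl (adjusted p 0.00104). Its counts were whole numbers in 13 of 36 libraries, and 19.5% of the 31-base words in its exons recur in 3 other genes. Its exons overlap 508 bases of the antisense RNA Particl, which has no row in the table, and whether the counting used strand is not given in the sources used here.

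Ahcy (chr2:155059310-155074497) clears S-adenosylhomocysteine, the product left by methylation. It had 8.84, 19.8 and 42.1 CPM as the lowest, median and highest value in NI 8-cell libraries, against 0.614, 5.50, 5.02 and 0.988 CPM in NI 2-cell libraries, with no overlap. In Ctrl it had 9.94, 17.7 and 36.2 CPM at the 8-cell stage, against 0, 9.40 and 17.6 CPM at the 2-cell stage, where replicate 3 was the highest and replicates 1, 5 and 7 had 9.40, 16.1 and 13.9 CPM. The log2 fold change of Ahcy was 2.81 ± 0.85 in NI (edgeR adjusted p 0.00611) and 1.21 ± 0.63 in Ctrl (adjusted p 0.0952). Without the libraries that stood apart it was 1.95 ± 0.79 in Ctrl (adjusted p 0.0389). Of the 31-base words in Ahcy's exons 71.4% recur in 4 other genes, chiefly the gene model Gm4737, which has no row in the table. The counts of Ahcy were whole numbers in 36 of 36 libraries, and its level is uncertain.

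Mtr (chr13:12182712-12258113), methionine synthase, had 0.804, 11.6 and 20.2 CPM as the lowest, median and highest value in NI 8-cell libraries, against 4.30, 5.02, 5.74 and 5.76 CPM in NI 2-cell libraries. In Ctrl it had 1.71, 8.08 and 12.4 CPM at the 8-cell stage, against 6.86, 14.8 and 20.7 CPM at the 2-cell stage. The direction of the medians differed between the treatments. The log2 fold change of Mtr was 1.16 ± 0.56 in NI (edgeR adjusted p 0.0833) and -0.70 ± 0.46 in Ctrl (adjusted p 0.185). Ctrl minus NI, the change differed by -1.86 ± 0.73 (adjusted p 0.144). No member passed the test of this difference (0 of 13158 genes were called, 0%). Mthfd1l and Mtr had an unadjusted p under 0.05, as had 20.4% of all genes. Mthfd1 is left out here, since its Ctrl values led to the choice of the genes. DESeq2 called 0 members and 5.24% of genes.

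At the 2-cell stage 8 members entered the fit and Amt was too low to enter it. Mthfd1 is left out of the counts that follow, since its KRAB and Ctrl values led to the choice of the genes, and only a description is given for it. EdgeR called 0 of the other 7 members for KRAB against Ctrl, KRAB against NI or Ctrl against NI, as it did 0% of the 11799 genes tested in each. Of these 7 members, 2 had an unadjusted p under 0.05 between KRAB and Ctrl (15.6% of all genes), 0 between KRAB and NI (3.12%) and 1, Mtr, between Ctrl and NI (23.4%). DESeq2 called 0 of these 7 for KRAB against Ctrl (2.05% of genes), KRAB against NI (0%) or Ctrl against NI (9.20%). KRAB and NI were each compared with the same Ctrl libraries, so these comparisons are not independent.

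Mthfd1, the gene behind the choice, had values in KRAB that lay apart from those in Ctrl. Its CPM in the 6 KRAB libraries were 10.4, 4.28, 8.01, 5.19, 3.92 and 9.10, against 25.6, 18.2, 68.7, 19.2, 40.5, 10.8 and 45.0 in the 7 Ctrl libraries. The highest KRAB value of Mthfd1 lay just below the lowest Ctrl value, and the ranges of 0.274% of all genes were separate, 0.114% with KRAB higher and 0.160% with KRAB lower; nothing is read from that share here. KRAB libraries averaged 6.82 ± 2.73 CPM and Ctrl libraries 32.6 ± 20.1 CPM (SD, n = 6 and 7), a log2 difference of -2.03, and of -1.87 without the libraries that stood apart. Summed cumulus markers were highest in KRAB replicates 2 and 6, at 360.4 and 416.4 CPM, where Mthfd1 had 4.28 and 9.10 CPM. KRAB overlapped with NI, whose 4 libraries averaged 10.4 ± 0.609 CPM, and the log2 difference between KRAB and NI was -0.66. Between Ctrl and NI it was 1.36, and all 7 Ctrl libraries lay above the NI median. Both use values that led to the choice, as do the change of Mthfd1 between the stages in Ctrl and its difference from the change in NI.

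Mtr and Ahcy had an unadjusted p under 0.05 between KRAB and Ctrl. Mtr had 3.48, 6.48 and 8.84 CPM as the lowest, median and highest value in KRAB, against 6.86, 14.8 and 20.7 CPM in Ctrl and 4.30 to 5.76 CPM in NI. The log2 fold change of Mtr was -0.82 ± 0.38 for KRAB against Ctrl (edgeR adjusted p 0.308) and 1.07 ± 0.45 for Ctrl against NI (adjusted p 0.169). Every Ctrl library exceeded every NI library in Mtr, as in 0.517% of genes (0.844% were separate in either direction). Ahcy had 0, 1.73 and 4.68 CPM in KRAB, against 0, 9.40 and 17.6 CPM in Ctrl, with a log2 fold change of -1.96 ± 0.89 (adjusted p 0.304). The 3 Ctrl libraries that stood apart had 9.40 to 16.1 CPM of Ahcy and the other 4 had 0 to 17.6 CPM with a median of 1.73, the same as in KRAB. Without the libraries that stood apart the log2 fold change of Ahcy was -1.26 ± 0.99.

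The glycine cleavage genes spread widely within the 2-cell groups. Gcsh had 426.5, 671.6 and 1092 CPM as the lowest, median and highest value in KRAB, against 72.6, 446.7 and 897.4 CPM in Ctrl, with a log2 fold change of 0.82 ± 0.64 (edgeR adjusted p 0.512), and of 0.15 ± 0.61 without the libraries that stood apart. In the 3 Ctrl libraries with the least ribosomal protein mRNA, Gcsh had 72.6 to 129.4 CPM, against 446.7 to 897.4 CPM in the other 4. Gldc had 1.09 to 4.46 CPM in those 3 and 33.5 to 68.9 CPM in the other 4. NI replicates 1 and 3 were also low in Gcsh, with 167.6 and 88.9 CPM, at 49202 and 22127 CPM of ribosomal protein mRNAs. KRAB replicates 3 and 5, at 27059 and 30199 CPM of these mRNAs, had 752.0 and 742.3 CPM of Gcsh. Mthfd1 had 25.6 to 45.0 CPM in the 3 Ctrl libraries that stood apart and 10.8 to 68.7 CPM in the other 4. The part of ribosomal protein content in these values was not tested.

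**Figure D4:**
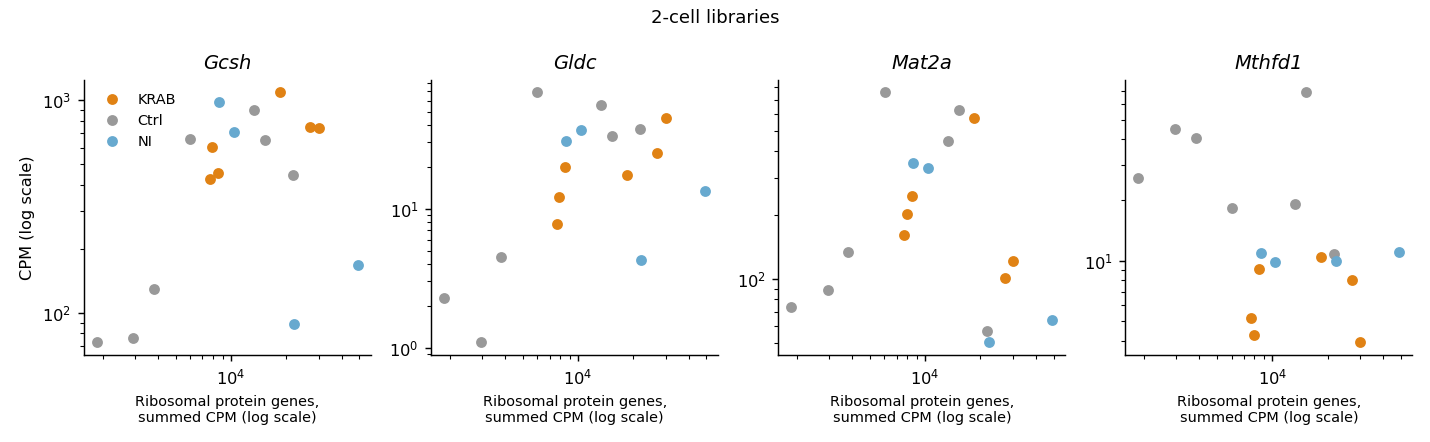
CPM of Gcsh, Gldc, Mat2a and Mthfd1 (vertical axes, log scale) against the summed CPM of 76 ribosomal protein genes (horizontal axes, log scale) in the 17 2-cell libraries, coloured by treatment. The 3 Ctrl libraries under 4000 CPM of ribosomal protein genes are low in Gcsh and Gldc, at 72.6 to 129.4 and 1.09 to 4.46 CPM, and not in Mthfd1, at 25.6 to 45.0 CPM.

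At the 8-cell stage all 9 members were tested and edgeR called 0 for VP64 against Ctrl, VP64 against NI or Ctrl against NI, as it did 0% of the 9850 genes in each. At an unadjusted p under 0.05 the counts were 2 members (3.99% of genes), 1 member (7.17%) and 1 member (4.36%) in that order, and DESeq2 called 0 members in each (0.0102%, 0.213% and 0.0102% of genes). Gldc was the member that separated VP64 from Ctrl. Its CPM in the 7 VP64 libraries were 40.5, 97.8 and 104.2 as the lowest, median and highest value, against 112.9, 176.8 and 391.1 in the 6 Ctrl libraries. The highest VP64 value lay below the lowest Ctrl value, as in 0.0684% of genes (0.182% were separate in either direction). Gldc averaged 82.6 ± 25.5 CPM in VP64 and 205.2 ± 106.9 CPM in Ctrl (SD, n = 7 and 6), with a log2 fold change of -1.34 ± 0.37 (edgeR adjusted p 0.999). Against NI, which had 58.3 to 238.9 CPM, it was -0.82 ± 0.37 (adjusted p 0.672), and all 7 VP64 libraries lay below the NI median.

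The ranges of Gldc's partners overlapped between VP64 and Ctrl, and the difference between Gldc and its partners was not tested. Gcsh had 2054, 2733 and 4808 CPM as the lowest, median and highest value in VP64, against 1429, 3671 and 5455 CPM in Ctrl, with a log2 fold change of -0.30 ± 0.34 (95% interval -1.0 to 0.41). Amt had 6, 17.6 and 33.1 CPM in VP64, against 0, 9.22 and 19.9 CPM in Ctrl, with a log2 fold change of 0.97 ± 0.75 (-0.58 to 2.53). Mthfd1l had 1.20, 2.85 and 7.18 CPM in VP64, against 0, 1.15 and 2.03 CPM in Ctrl, with a log2 fold change of 1.68 ± 0.66 (edgeR adjusted p 0.999). Mthfd1l in VP64 overlapped with NI, with 0.915 to 6.13 CPM, and differed from it by 0.29 ± 0.61 on the log2 scale. The other 5 members differed between VP64 and Ctrl by -0.63 to 0.47 on the log2 scale.

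The order of the members by level per kilobase of exon was similar at its top in all groups. Gcsh had a median of 2362 CPM per kilobase in NI 8-cell libraries, and Mat2a followed with 340.7, Gldc with 24.2, Shmt1 with 17.4, Mthfd1 with 17.0, Ahcy with 7.04, Amt with 4.17, Mtr with 1.36 and Mthfd1l with 0.556. In NI 2-cell libraries Gcsh had a median of 278.3 CPM per kilobase, Mat2a 44.1, Shmt1 26.7, Gldc 3.61, Mthfd1 2.35, Ahcy 1.07, Mtr 0.631, Mthfd1l 0.597 and Amt 0.169. At the 8-cell stage in NI the ranges of Gcsh and Mat2a were separate, and every later neighbour in the order overlapped with the next. At the 2-cell stage in NI only Mthfd1 and Ahcy were neighbours with separate ranges. In NI, Amt held the seventh place at the 8-cell stage, ahead of Mtr and Mthfd1l, and the last place at the 2-cell stage.

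Genes whose levels ran most like a member's were found by Pearson's r of log2(CPM + 1) over the 36 libraries. The search covered the genes tested between the stages and left out those with bare model names (Gm, Rik or LOC). The libraries fall into the 2 stages, so the values within each stage are given as a description. Gcsh ran most like Pa2g4, with an r of 0.83 over 19 8-cell and 0.95 over 17 2-cell libraries, and Ppil1, with 0.77 and 0.97. Gldc ran most like Dnttip2, with an r of 0.69 over 8-cell and 0.93 over 2-cell libraries, and Eif3a, with 0.82 and 0.87. Mthfd1 ran most like Gaa, with 0.89 and 0.80, and Eftud2, with 0.89 and 0.85. Mat2a ran most like Atp6ap1, with 0.93 and 0.91, and Shmt1 most like Cstf1, with 0.83 and 0.94. Mthfd1l, the scarcest member per kilobase at the 8-cell stage, had the weakest matches, with 0.56 and 0.63 for Cdc27. The libraries share depth and the low ribosomal protein content of 3 pools in these values.

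Around the members, 49 other genes of folate, purine, serine and methionine metabolism were listed, of which 45 were tested between the stages. In NI 15 rose (18.5% of all genes) and 8 fell (31.4%), with a median log2 fold change of 0.57. In Ctrl 18 rose (22.5%) and 11 fell (39%), with a median of 0.84, also with Mat1a at its bound. In either direction 23 were called in NI (49.9% of all genes) and 29 in Ctrl (61.5%). The same shares of all genes stand beside the counts of the smaller lists below. Without NI 2-cell replicate 3 the NI counts were 13 rises and 3 falls, and without NI 8-cell replicate 3 they were 14 and 5. Without the libraries that stood apart the Ctrl counts were 16 and 9. Within either stage edgeR called 0 of the 40 tested at the 2-cell stage and 0 of the 43 at the 8-cell stage. This held in each of the 6 comparisons, as it did for 0% of all genes. At most 7 had an unadjusted p under 0.05, for Ctrl against NI at the 2-cell stage (23.4% of all genes). DESeq2 called 5 in that comparison (9.20% of all genes).

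Among 5 folate transport genes 2 rose and 1 fell in both treatments. Slc46a1, the proton-coupled folate transporter, had 118.3 ± 45.3 CPM in NI 8-cell and 2.37 ± 3.34 CPM in NI 2-cell libraries (SD, n = 6 and 4), a log2 fold change of 5.40 ± 1.04 (edgeR adjusted p 5.65e-05). In Ctrl it was 3.81 ± 0.75, and 5.67 ± 0.71 without Ctrl 2-cell replicate 3. In NI it was 6.63 ± 1.26 without NI 2-cell replicate 4. Folr1, a folate receptor, rose by 3.42 ± 0.77 in NI and 3.28 ± 0.61 in Ctrl. Slc25a32, the mitochondrial folate carrier, fell by 2.27 ± 0.78 in NI (adjusted p 0.0143), a call lost without NI 2-cell replicate 4, and by 2.55 ± 0.72 in Ctrl.

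Of 13 further folate enzymes 9 were tested, with 1 rise and 3 falls in NI and 1 rise and 4 falls in Ctrl. Tyms, thymidylate synthase, was the 1 that rose, by 3.72 ± 0.71 in NI and 3.79 ± 0.57 in Ctrl, though its counts were not whole in any library, so its reads may be shared with another gene. Mthfd2, a mitochondrial enzyme of the embryo, had 20 ± 9.43 CPM in Ctrl 8-cell and 389.2 ± 232.2 CPM in Ctrl 2-cell libraries and fell by 4.28 ± 0.50 on the log2 scale (edgeR adjusted p 4.08e-09). In NI it fell by 2.0 ± 0.49. Fpgs, which adds glutamate to folate, fell by 3.35 ± 0.67 in Ctrl and differed by -0.90 ± 0.69 in NI (adjusted p 0.283). Mthfs fell by 2.10 ± 0.77 and Mtfmt by 2.09 ± 0.88 in NI, and both calls were lost without NI 2-cell replicate 3 or NI 8-cell replicate 3. That of Mtfmt was also lost without NI 8-cell replicate 1, 4 or 6, without NI 2-cell replicate 1 and without the filter on low counts, and its counts were whole in no library.

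Of 6 purine synthesis genes NI had 3 rises and 0 falls, and Ctrl 5 rises and 0 falls. Gart, whose enzyme uses formyl folate, rose by 2.94 ± 0.74 in NI and 2.69 ± 0.59 in Ctrl. Of 10 glycine and serine genes 5 rose in both, and 1 fell in NI and 2 in Ctrl. Phgdh, which opens serine synthesis, had 1068 ± 794.8 CPM in NI 8-cell and 42.0 ± 33.6 CPM in NI 2-cell libraries and rose by 4.65 ± 0.96 on the log2 scale (edgeR adjusted p 1.38e-04), and by 3.88 ± 0.73 in Ctrl. Psat1, the next enzyme, rose by 2.66 ± 0.81 in NI and 2.84 ± 0.66 in Ctrl. Dmgdh, which hands carbon from dimethylglycine to folate, rose by 3.81 ± 0.78 in NI and 3.09 ± 0.59 in Ctrl. Slc6a9, a glycine transporter, fell by 3.01 ± 0.88 in NI (adjusted p 0.00453), a call lost without NI 2-cell replicate 3, and fell by 5.36 ± 0.90 in Ctrl (adjusted p 3.97e-06).

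Of 15 genes of the methionine cycle and its branches NI had 4 rises and 3 falls, and Ctrl 5 rises and 4 falls. Bhmt, which renews methionine with betaine in place of folate, had 2274 ± 1791 CPM in NI 8-cell and 8.53 ± 9.99 CPM in NI 2-cell libraries, a log2 fold change of 7.99 ± 1.44 (edgeR adjusted p 2.16e-05). Ctrl libraries had 2533 ± 1483 CPM at the 8-cell stage, against 54.2 ± 109.0 CPM in 2-cell libraries, a log2 fold change of 5.54 ± 0.99. Ctrl 2-cell replicate 3 alone had 299.6 CPM of Bhmt, and without it the other 6 averaged 13.3 ± 14.1 CPM and the change was 7.44 ± 0.98. Without NI 2-cell replicate 4 the change in NI was 9.04 ± 1.70. Its counts were whole in 21 of 36 libraries, as were those of its neighbour Bhmt2, so reads may be shared in the others. Mat2b, the regulatory partner of Mat2a, fell by 1.93 ± 0.49 in NI and by 3.08 ± 0.47 in Ctrl. Mat1a, known as the liver form, had 0 counts in all Ctrl 8-cell libraries against 920 counts in Ctrl 2-cell libraries. With the 8-cell group set to a floor of 3 counts, its pooled level was at least 168.5-fold lower. That bound leaves out pool-to-pool spread, and Ctrl 2-cell libraries had 18.8 ± 15.6 CPM of Mat1a with a lowest value of 0. Without the libraries that stood apart, the log2 fold changes in Ctrl also moved by over 1.5-fold for 7 of the pathway genes named here, to 2.54 for Folr1, 2.90 for Tyms, -3.47 for Mthfd2, -2.21 for Fpgs, 2.43 for Dmgdh, -4.02 for Slc6a9 and -2.11 for Mat2b, and these 7 kept their calls. That of Dmgdh was 3.68 without Ctrl 2-cell replicate 3. Folr1, Gart, Psat1, Mat2b and Dld were chosen for naming after their values were seen.

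**Figure D5:**
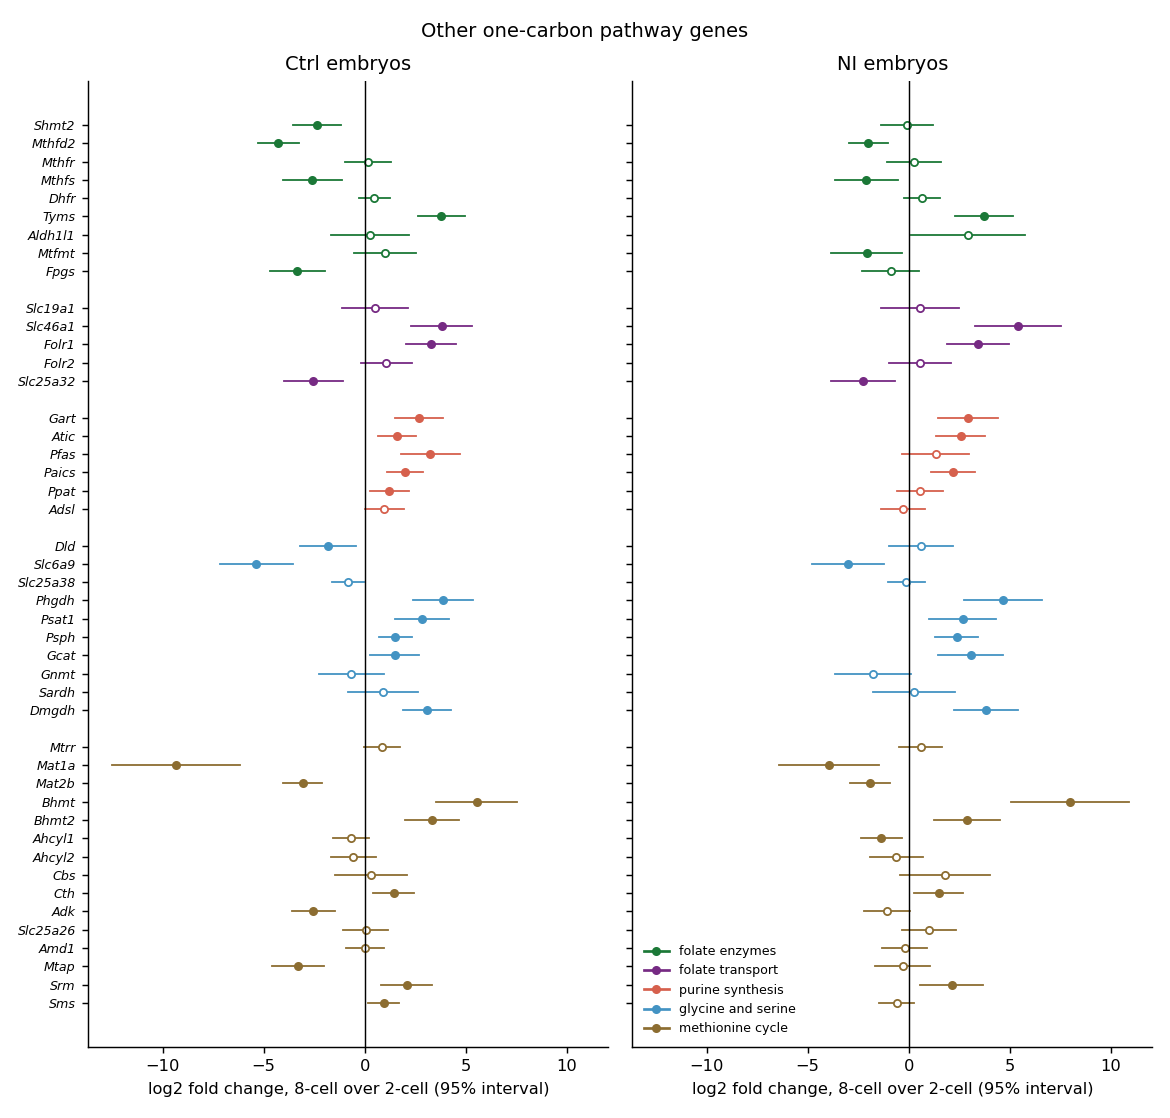
Log2 fold change between 8-cell and 2-cell libraries with its 95% interval for 45 other pathway genes, in Ctrl (left) and NI (right) embryos, coloured by gene list, with filled points for genes that passed the test. Phgdh, Slc46a1 and Bhmt lie between 3.81 and 7.99 in both, and Mthfd2 at -4.28 in Ctrl and -2.0 in NI; Mat1a in Ctrl rests on 0 counts at the 8-cell stage, so its fitted position is no measurement.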

How the data were processed

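Pooled mouse embryos gave 36 RNA-seq libraries; SMART-seq v4 was used, per the labels' protocols. The authors deposited expected counts per gene symbol, for which the submitters' processing notes name Bowtie2, RSEM and mm10, with versions and annotation not given in the sources used here. RSEM divides reads that match several genes, so these estimated counts need not be whole. Treatment and stage labels set the groups. Replicate numbers follow accession order and pair nothing. No sample column was left unused.

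Counts were rounded and tested with edgeR 4.0.16 (quasi-likelihood, robust, TMM; limma 3.58.1, R 4.3.3), filterByExpr (minimum count 10, minimum total 15) and Benjamini-Hochberg adjustment at 0.05 over all genes. Comparisons within a stage used all its libraries, and those between stages all 36. The biological coefficient of variation was 0.738 among 2-cell libraries, 0.609 among 8-cell libraries and 0.703 overall. Standard errors are log2 fold changes over the square root of F. The script was tested on simulated data. Levels between genes are CPM per kilobase of merged exons (GENCODE vM21, GRCm38). Alternatives were DESeq2 1.42.0, RLE scaling, no filter, only the compared groups, and each library left out. Of 93 replicate pairs none agreed within sampling noise (lowest chi-square per degree of freedom 7.749). Members and lists were chosen with earlier results of these data known. Other pathway genes were named if called with a mean of 10 CPM in a compared group, up to 4 rises and 4 falls a comparison by size, and Shmt2 always; exceptions are marked. Promoters and motifs came from RefSeq. Counting error was not given separately, since reads carry no molecular identifiers.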

Additional observations from a re-analysis of the deposited data

Results flagged for a closer look

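Dixon's test was taken on log2(CPM + 1), as the distance of a library from its nearest neighbour over the range of its group. Among the 54 sets of member and group, 4 held a library that exceeded its limit, where chance gives about 1 in 20. Which sets exceed the limit depends on that scale, and the values below are plain CPM. Shmt1 in VP64 8-cell replicate 7 had 34.7 CPM, the lowest of its group, against 60.5 to 91.4 CPM in the other 6. Gcsh in Ctrl 8-cell replicate 6 had 1429 CPM, against 3466 to 5455 CPM in the other 5. Mtr in the same library had 1.71 CPM, against 6.47 to 12.4 CPM in the other 5. Mtr in NI 8-cell replicate 5 had 0.804 CPM, against 7.93 to 20.2 CPM in the other 5. VP64 8-cell replicate 7 and NI 8-cell replicate 5 had 143019 and 117419 CPM of ribosomal protein mRNAs and 11343 and 11505 genes with a count, and Ctrl 8-cell replicate 6 had 184778 CPM and 9672 genes. NI 8-cell replicate 6, with 193625 CPM, exceeded all 3 in ribosomal protein mRNAs and was not set apart for any member.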

How the results depend on the processing

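No paired analysis was possible because the replicate numbers follow accession order and pair nothing. Counts of called members were 6 in NI and 6 in Ctrl between the stages with RLE scaling and without a filter. With only the compared groups fitted they were 6 in NI and 5 in Ctrl, where Amt lost its call. DESeq2 gave 6 in NI and 7 in Ctrl (Mtr added), and 1 each for KRAB against Ctrl and Ctrl against NI at the 2-cell stage, in place of 0, which was Mthfd1 in both; its KRAB and Ctrl counts led to the choice of the genes, so these calls are no test of it. Leaving out 1 library at a time gave 0 to 1 for KRAB against Ctrl, where the 1 was again Mthfd1, without Ctrl 2-cell replicate 6 (159 genes in all), and 6 to 7 in NI, where Mtr was called without NI 8-cell replicate 5. It gave 6 in Ctrl and 0 elsewhere. Without Ctrl 2-cell replicate 6 edgeR also called 1374 genes for Ctrl against NI at the 2-cell stage and 1098 for the interaction, in place of 0; the interaction also had 84 without Ctrl 2-cell replicate 2 and 265 without Ctrl 2-cell replicate 4. With DESeq2 242 genes were called between KRAB and Ctrl, 1086 between Ctrl and NI at the 2-cell stage and 690 for the interaction. The causes were not tested. Of 1388 alternative log2 fold changes of members, 6 gained a call, 2 lost one and no called value changed sign. Gcsh led per kilobase in 6 of 6 groups also with RLE and with the median transcript length. Leaving out the libraries that stood apart was chosen after seeing the data; it kept 6 calls in Ctrl between the stages, with Ahcy in place of Amt. Low depth limits Amt, with 9 counts in NI 2-cell libraries, and Mthfd1l, with 25 in Ctrl 8-cell libraries.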
